A study of Mus musculus with 4 samples.

Results

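The cadherins and the non-clustered protocadherins were described in palatal mesenchyme of mouse embryos with and without the forkhead transcription factor *Foxf2*. Members were all genes whose symbol is Cdh or Pcdh followed by a number, with *Pcdh11x* included and the clustered *Pcdha*, *Pcdhb* and *Pcdhg* genes left out, which gave 36 of the 22096 gene symbols measured. They were 24 cadherins and 12 protocadherins, with 57 transcript entries. Their values are FPKM, fragments scaled to the transcript's length and to the mapped fragments of the library, as the authors deposited them, summed by gene and embryo.

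RNA was sequenced from RFP-positive cells sorted from palatal shelves of 4 littermate embryos at embryonic day 13.5 on a mixed strain background. The controls were 1 *Foxf2+/+* and 1 *Foxf2+/-* embryo, and both were compared with 2 *Foxf2-/-* embryos (the mutants), the offspring of *Foxf2+/-* parents, which lack the gene in every tissue. All 4 embryos carried *Osr2RFP/+*, a knock-in that puts RFP under the *Osr2* locus, so every group had 1 unmodified *Osr2* allele. The sort selected for *Osr2*-expressing cells by their RFP, and markers of other cell types are given below. *Foxf2* was at 85.4 FPKM in the *Foxf2+/+* and 45.1 in the *Foxf2+/-* control, compared with 1.41 and 2.28 in the mutants (log2 fold change -5.03 ± 0.31 SE, limma, adjusted p = 0.00533). Neither control genotype was replicated. Values of the controls are given with *Foxf2+/+* first and *Foxf2+/-* second, and those of the mutants by replicate number.

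Cadherins are calcium-dependent adhesion proteins that bind the same or a related cadherin on a neighbouring cell and connect through catenins to the actin cytoskeleton. Type I and type II cadherins differ in the strands that their outermost domains exchange, and cells that carry different cadherins, or different amounts of one, sort from each other. Delta protocadherins adhere more weakly, signal through their cytoplasmic tails, and are best known from neurons and from migrating mesenchyme. The neural crest, which gives rise to palatal mesenchyme, is known for replacing one cadherin with another as it leaves the neural tube.

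The libraries held an estimated 13200000 to 16100000 reads, taken from the deposited coverage, and depth relative to the *Foxf2+/+* library was 1.02 to 1.19. The 10 palatal mesenchyme markers examined were each at or above 1 FPKM in all 4 embryos, and their sum ranged from 1282 to 1505. Both *Foxf2-/-* embryos were above both controls for 1 of them, *Osr1* (10%), and below both for 4, *Prrx1*, *Twist1*, *Pdgfra* and *Shox2* (40%). The shares over the 11154 genes with a mean of at least 1 FPKM were 9.89% and 35.8%. *Shox2* was at 114 and 73.4 FPKM in the controls against 47.7 and 63.7 in the mutants. *Epcam*, the defining epithelial marker, was at 1.03 and 0.987 FPKM in the controls against 0.901 and 1.69 in the mutants. *Pecam1* (endothelium) did not pass 0.0962 FPKM in any embryo, and *Myod1* (muscle) was at 0.0327 in the *Foxf2+/+* embryo and listed at 0 in the others. *Sox10* (glia) was at 0.142 and 0.156 FPKM in the controls against 0.469 and 0.352 in the mutants. The 8 blood and immune markers summed to 23.7 FPKM in the *Foxf2+/+* and 65.7 in the *Foxf2+/-* control, compared with 46.6 and 112 in the mutants. The largest term was the haemoglobin gene *Hba-a1*, at 9.83 and 38.7 FPKM in the controls against 28.2 and 72.2 in the mutants. *Xist* was at or below 0.0455 FPKM in all 4 embryos, and the 4 Y-linked genes *Ddx3y*, *Eif2s3y*, *Kdm5d* and *Uty* were at 2.56 FPKM or more in each, so the 2 X-linked members, *Pcdh19* and *Pcdh11x*, were compared among embryos that showed the same pattern of sex-linked genes.

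*Cdh11* was the most abundant member in every embryo. The gene encodes OB-cadherin, a type II cadherin of mesenchyme and bone-forming cells, and its mm9 position is chr8:105156895-105309011 on the minus strand. Its FPKM was 165 in the *Foxf2+/+* and 146 in the *Foxf2+/-* control, compared with 151 and 155 in the mutants, which lay between the controls. It made up 46.3 to 47.7% of the summed FPKM of the 36 members and ranked 189 of 11154 genes by mean FPKM. *Pcdh18*, a delta-2 protocadherin, was second at 66.2 and 60.8 FPKM in the controls against 64.4 and 62.8 in the mutants. Together both genes took 65.7 to 66.9% of the summed FPKM in each embryo. The sum over all 36 members was 346 and 314 FPKM in the controls against 326 and 331 in the mutants. The groups therefore overlapped for the sum and for each of the leading genes.

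The 95% confidence interval of the log2 fold change of *Cdh11* ran from -0.24 to 0.20 (log2 fold change -0.02 ± 0.09 SE, limma, adjusted p = 0.946), or from 0.845-fold to 1.15-fold. That of *Pcdh18* ran from -0.20 to 0.21 (log2 fold change 0.00 ± 0.09 SE, limma, adjusted p = 0.989), or from 0.872-fold to 1.15-fold. The interval was widest for *Cdh18* among the 8 tested members whose groups overlapped, from -1.26 to 0.29. All fold changes are on the scale of log2(FPKM + 0.1), where the added constant makes those of low genes too small. All values are from sorted cells in bulk, in which fewer cells with a transcript and less of it per cell cannot be told apart.

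**Figure D1:**
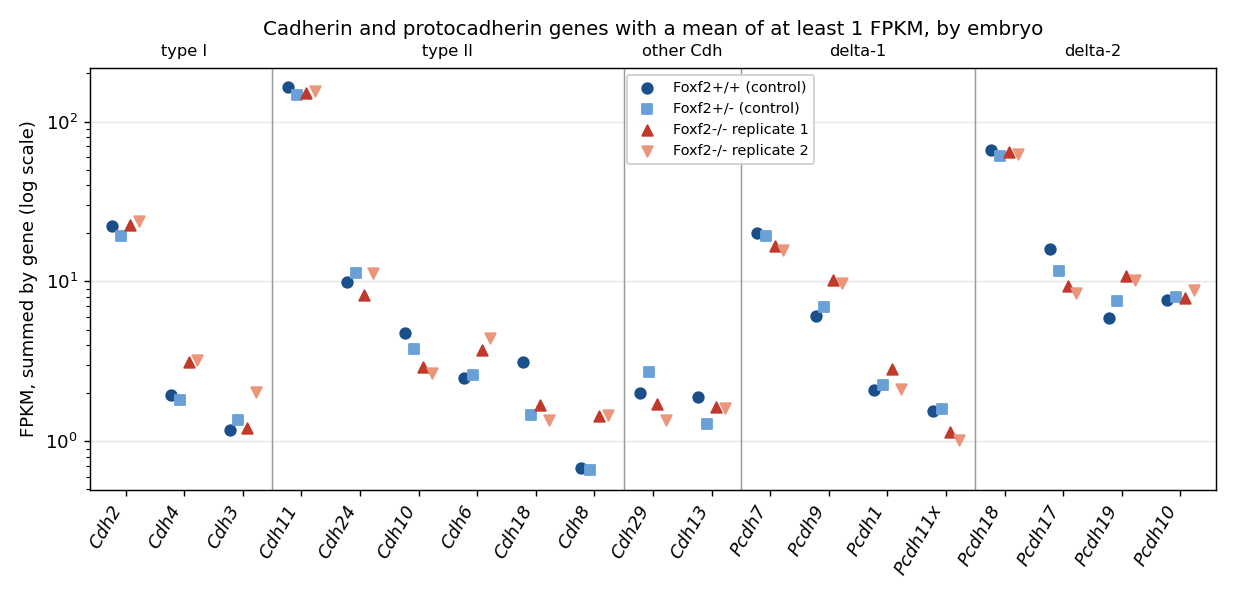
FPKM on a log axis of the 19 members with a mean of at least 1 FPKM, each point 1 embryo, grouped by type I, type II and other cadherins and delta-1 and delta-2 protocadherins. *Cdh11* (146 to 165 FPKM) and *Pcdh18* (60.8 to 66.2) stand above all others, and both *Foxf2-/-* embryos lie above both controls for *Cdh4*, *Cdh6*, *Cdh8*, *Pcdh9* and *Pcdh19* and below them for *Cdh10*, *Pcdh17* and *Pcdh7*.

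A gene was tested when its mean over the 4 embryos was at least 1 FPKM, which 11154 genes and 19 of the 36 members did. *Cdh8*, with a mean of 1.06 FPKM, was just inside and *Cdh12*, with 0.778, just outside. limma called 0 of the 19 members at an adjusted p under 0.05 and a change over 1.5-fold, with 0.0628% (7 genes) called over all genes tested. At an unadjusted limma p under 0.05, 5 members were higher in *Foxf2-/-* embryos (*Cdh4*, *Cdh6*, *Cdh8*, *Pcdh9* and *Pcdh19*) and 5 were lower (*Cdh10*, *Cdh29*, *Pcdh7*, *Pcdh11x* and *Pcdh17*), each 26.3% of the 19. The shares over all genes were 2.73% higher and 10.3% lower. *Cdh4*, *Cdh6* and *Cdh8* were also past 1.5-fold against each control (0.717% of all genes), and 0 members were past it in the lower direction (0.681%). *Cdh8* had a mean under 1 FPKM in the controls and passed the filter only through the *Foxf2-/-* embryos, where it was high, so its place in these counts is a description. Among the 10944 genes and 18 members with a mean of at least 1 FPKM in each group, which leave *Cdh8* out, 2 members (*Cdh4* and *Cdh6*) were past 1.5-fold and higher against 0.521% of genes. On the same 18 members, 4 were higher at an unadjusted p under 0.05 (22.2%, against 2.57% of genes) and 5 were lower (27.8%, against 10.2%). With a pseudocount of 1 in place of 0.1, none of the 3 was past 1.5-fold against both controls.

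The *Foxf2-/-* embryos did not overlap the controls for 11 of the 19 members. Of these, 6 were higher (31.6%), namely the 5 above and *Cdh2*, and 5 were lower (26.3%), the same 5 that had an unadjusted p under 0.05. Over all genes tested, 9.89% did not overlap and were higher and 35.8% did not overlap and were lower. Without *Cdh8*, 5 of the 18 were higher and 5 lower (27.8% each), against 9.59% and 35.8% of the genes with a mean of at least 1 FPKM in each group. The all-gene split depended on the scaling between samples, because the median log2 fold change of all genes was -0.08 with the FPKM as deposited. With samples rescaled by median ratios it was -0.0012, and 20.9% of genes were apart and higher and 21.6% apart and lower, against 7 members (36.8%) and 5 members (26.3%). The share of lower members was therefore below that of all genes with the FPKM as deposited and above it after the rescaling. *Pcdh10* joined the 6 higher members after the rescaling. On that scale 6 members had an unadjusted p under 0.05 and were higher (5.8% of genes) and 2, *Cdh10* and *Pcdh17*, were lower (5.2% of genes), while the same 3 members were past 1.5-fold (0.825% higher, 0.448% lower). With 2 embryos a group, an exact permutation test of 1 gene cannot give a two-sided p below 0.333.

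**Figure D2:**
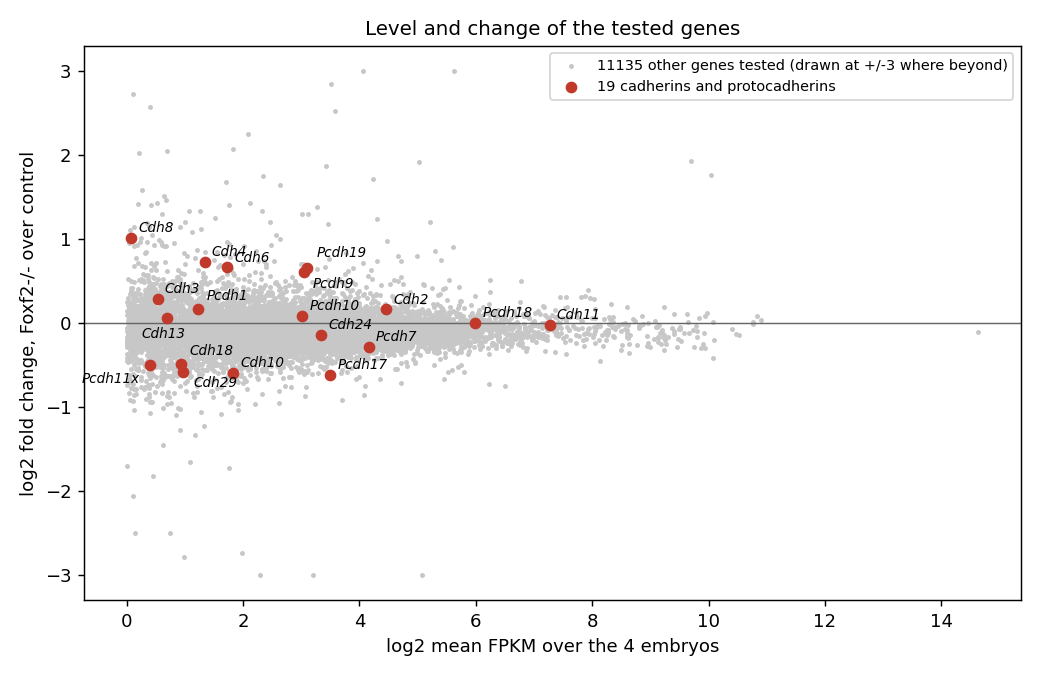
Mean FPKM over the 4 embryos (log2, horizontal) against the log2 fold change of *Foxf2-/-* over control embryos (vertical) for the 11154 genes tested, with the 19 members in red. The most abundant members, *Cdh11* (-0.02) and *Pcdh18* (0.00), lie at the centre line, and *Cdh8* (1.01), *Cdh4* (0.73) and *Cdh6* (0.66) lie above it, the first of which is among the genes tested only through its *Foxf2-/-* values.

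Among the type I cadherins, *Cdh4* differed most between the groups. *Cdh4* encodes R-cadherin, known from retina, brain and kidney, and spans chr2:179177183-179634080 on the plus strand with 16 annotated exons. Its FPKM was 1.95 in the *Foxf2+/+* and 1.80 in the *Foxf2+/-* control, compared with 3.12 and 3.24 in the mutants. Both *Foxf2-/-* embryos were above both controls, and the groups lay further apart than the embryos of either group (1.60-fold against *Foxf2+/+* and 1.73-fold against *Foxf2+/-*). The log2 fold change was 0.73 ± 0.15 (SE), with an interval from 0.38 to 1.08 and a limma adjusted p of 0.177, so that it did not pass the threshold over all genes.

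*Cdh2*, or N-cadherin, is the classical cadherin of mesenchyme and neural tissue. It was at 22.3 and 19.2 FPKM in the controls against 22.7 and 23.8 in the mutants. The groups did not overlap, but the lower *Foxf2-/-* embryo exceeded the *Foxf2+/+* embryo by less than the controls differed from each other (log2 fold change 0.16 ± 0.10 SE, limma, adjusted p = 0.538). *Cdh3*, or P-cadherin, is known from epithelia and placenta. It was at 1.17 and 1.37 FPKM in the controls against 1.20 and 2.04 in the mutants, of which the first lay between the controls (log2 interval from -0.36 to 0.94).

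Of the type II cadherins, *Cdh6* and *Cdh8* were higher in both *Foxf2-/-* embryos. *Cdh6*, or K-cadherin, is known from kidney and from the neural crest, and lies at chr15:12963955-13103394 on the minus strand. It was at 2.49 and 2.58 FPKM in the controls, which lay close together, and at 3.74 and 4.44 in the *Foxf2-/-* embryos (1.61-fold against *Foxf2+/+* and 1.56-fold against *Foxf2+/-*). The log2 fold change was 0.66 ± 0.14 (SE; limma, adjusted p = 0.189). Without the second *Foxf2-/-* embryo, *Cdh6* was no longer past 1.5-fold against both controls.

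*Cdh8*, a type II cadherin best known from brain circuits, lies at chr8:101552669-101940357 on the minus strand. It was at 0.677 FPKM in the *Foxf2+/+* and 0.657 in the *Foxf2+/-* control, compared with 1.43 and 1.47 in the mutants, so the values within each group were close and the group means were 2.02-fold apart. The log2 fold change was 1.01 ± 0.24 (SE), with an interval from 0.45 to 1.58 and a limma adjusted p of 0.229, or 0.364 with no filter on low values. An estimated 57.3 to 143 reads lay behind these values. The gene reached the mean of 1 FPKM only through the *Foxf2-/-* embryos, since both controls were below it, and its fold change and p are therefore given as a description. Its 2 transcript entries end at different places and were estimated from shared reads, and the groups did not overlap for NM_007667 (0.437 and 0.561 against 1.23 and 0.893 FPKM) but did for NM_001039154 (0.240 and 0.0955 against 0.199 and 0.573 FPKM). With the higher entry alone, the mean of *Cdh8* was under 1 FPKM and the gene was not tested.

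*Cdh10* was lower in both *Foxf2-/-* embryos. It is a type II cadherin known from brain and lies at chr15:18750084-18943989 on the plus strand. Its FPKM was 4.76 in the *Foxf2+/+* and 3.80 in the *Foxf2+/-* control, compared with 2.90 and 2.69 in the mutants (0.595-fold and 0.742-fold against the controls). The log2 fold change was -0.59 ± 0.15 (SE; limma, adjusted p = 0.253), and only the comparison with the *Foxf2+/+* embryo was beyond 1.5-fold.

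*Cdh18* depended on which control was used. This type II cadherin of neural tissue was at 3.13 FPKM in the *Foxf2+/+* embryo but at 1.46 in the *Foxf2+/-* embryo, and at 1.68 and 1.35 in the *Foxf2-/-* embryos, which lay on either side of the latter. The ratio of the mutants was 0.498-fold to the *Foxf2+/+* and 1.03-fold to the *Foxf2+/-* control (log2 fold change -0.48 ± 0.33 SE, limma, adjusted p = 0.572), and without the *Foxf2+/+* embryo the log2 fold change was 0.04. *Cdh24*, another type II cadherin, was at 9.86 and 11.4 FPKM in the controls against 8.18 and 11.3 in the mutants, and the groups overlapped (log2 interval from -0.51 to 0.24).

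*Cdh6*, *Cdh10*, *Cdh18*, *Cdh9* and *Cdh12* are all type II genes of chromosome 15. Their directions were mixed, with *Cdh6* higher in both *Foxf2-/-* embryos, *Cdh9* and *Cdh10* lower, and *Cdh12* and *Cdh18* overlapping between the groups.

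The promoter sequences of 22 of the 36 members, 11 of them among the 19 tested, were found in the RefSeq table for GRCm38.p6. Those of *Cdh6*, *Cdh8*, *Cdh10* and *Pcdh17* are shown, which had the 2 largest log2 fold changes in each direction among the tested members with an entry, because the gene removed encodes a forkhead factor. Each window is the 250 bases before the annotated start, on the strand of the gene. It was searched on both strands for the forkhead core TGTTTA, for its variant TGTTTG, which differs in the last letter and so cannot match at the same place, and for the E-box CACCTG bound by Snail and Zeb proteins. Capitals mark a match, written as its reverse complement where it lies on the opposite strand.
*Cdh6*, chr15:13173676-13173925, minus strand: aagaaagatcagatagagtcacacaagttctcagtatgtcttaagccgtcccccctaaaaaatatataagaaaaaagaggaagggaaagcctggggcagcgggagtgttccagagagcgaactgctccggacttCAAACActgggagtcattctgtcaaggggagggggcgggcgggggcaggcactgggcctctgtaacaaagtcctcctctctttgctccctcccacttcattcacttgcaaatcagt
*Cdh8*, chr8:99416472-99416721, minus strand: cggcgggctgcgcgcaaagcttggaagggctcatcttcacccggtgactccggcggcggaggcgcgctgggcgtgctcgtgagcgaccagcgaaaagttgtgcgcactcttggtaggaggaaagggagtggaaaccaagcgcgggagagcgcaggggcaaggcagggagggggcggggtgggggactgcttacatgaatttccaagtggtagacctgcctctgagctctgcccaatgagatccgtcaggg
*Cdh10*, chr15:18820079-18820328, plus strand: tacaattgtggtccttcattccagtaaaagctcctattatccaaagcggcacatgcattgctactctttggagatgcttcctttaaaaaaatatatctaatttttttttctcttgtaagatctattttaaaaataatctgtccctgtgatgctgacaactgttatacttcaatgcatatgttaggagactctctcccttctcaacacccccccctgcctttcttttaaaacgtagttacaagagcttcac
*Pcdh17*, chr14:84443313-84443562, plus strand: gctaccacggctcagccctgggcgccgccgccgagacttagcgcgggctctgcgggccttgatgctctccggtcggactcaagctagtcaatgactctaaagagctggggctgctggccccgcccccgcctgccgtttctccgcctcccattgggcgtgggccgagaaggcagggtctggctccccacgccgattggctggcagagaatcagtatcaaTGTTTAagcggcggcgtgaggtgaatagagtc

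The window of *Cdh6* held TGTTTG on the opposite strand, 116 bases before the start, and that of *Pcdh17* held TGTTTA on its own strand, 32 bases before the start. Those of *Cdh8* and *Cdh10* held none of the 3 motifs. TGTTTA was found in 2 of the 22 members with a promoter (9.09%; *Cdh12* and *Pcdh17*) and in 12.0% of the 32851 promoters in the table. TGTTTG was found in 3 (13.6%; *Cdh6*, *Pcdh15* and *Pcdh20*) against 16.0%, and CACCTG in 2 (9.09%; *Cdh7* and *Pcdh15*) against 17.2%. A member counted when any of its promoters matched, whereas all promoters were counted singly, so the shares have different units. Each share among the members was below that of all promoters but rested on 2 or 3 members, and the difference was not tested. The windows differed in base composition, with a GC content of 36.8% for *Cdh10*, 51.2% for *Cdh6*, 64.4% for *Cdh8* and 64.8% for *Pcdh17*. The median was 58.4% over the 25 promoters of members and 52.4% over all promoters. A match is a run of letters and says nothing on binding.

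Among the other cadherins, *Cdh13* and *Cdh29* passed the filter. *Cdh13*, or T-cadherin, is held in the membrane by a lipid anchor and has no cytoplasmic tail. The mutants, at 1.64 and 1.61 FPKM, lay between the controls, at 1.90 and 1.28. *Cdh29* was at 2.02 and 2.70 FPKM in the controls against 1.70 and 1.36 in the mutants, both below the controls (log2 fold change -0.58 ± 0.21 SE, limma, adjusted p = 0.337). The symbol is uncertain, because RefSeq now gives *Cdh29* as another name of *Cdhr4*, and the deposited tables list both as neighbours on chromosome 9. *Cdhr4* was at 5.61 and 4.02 FPKM in the controls against 3.27 and 3.28 in the mutants.

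Delta-1 protocadherins were represented by all 4 genes, of which *Pcdh9* was higher and *Pcdh7* and *Pcdh11x* were lower in both *Foxf2-/-* embryos. *Pcdh9* spans a long gene at chr14:93412920-94287951 on the minus strand and is known from brain. It was at 6.10 and 6.90 FPKM in the controls against 10.2 and 9.72 in the mutants, so that the groups lay further apart than the embryos of either group (1.62-fold against *Foxf2+/+* and 1.44-fold against *Foxf2+/-*). Its log2 fold change was 0.61 ± 0.11 (SE), with an interval from 0.35 to 0.86. This was the smallest limma adjusted p among the members, 0.144, and rank 53 of the 11154 genes by p.

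*Pcdh7*, also called BH-protocadherin, was at 20.2 and 19.1 FPKM in the controls against 16.6 and 15.7 in the mutants. The groups did not overlap, with a difference of 0.823-fold (log2 fold change -0.28 ± 0.09 SE, limma, adjusted p = 0.308). Both of its entries, 5610 and 7741 bases long, were lower in both *Foxf2-/-* embryos, and the share of the shorter one was 42.4 to 45.3% in the 4 embryos. *Pcdh11x*, the X-linked delta-1 gene, was at 1.54 and 1.60 FPKM in the controls against 1.14 and 1.02 in the mutants (0.707-fold, limma, adjusted p = 0.375). *Pcdh1*, known from airway epithelium, was at 2.11 and 2.25 FPKM in the controls against 2.82 and 2.13 in the mutants, of which the second lay between the controls.

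The delta-2 protocadherins *Pcdh17* and *Pcdh19* differed in opposite directions. *Pcdh19*, the X-linked gene whose human counterpart is mutated in an epilepsy of females, lies at chrX:130117400-130223532 on the minus strand. It was at 5.87 FPKM in the *Foxf2+/+* and 7.53 in the *Foxf2+/-* control, compared with 10.8 and 10.2 in the mutants, and was 1.78-fold against the first and 1.39-fold against the second control. The log2 fold change was 0.65 ± 0.13 (SE), with an interval from 0.34 to 0.97 and a limma adjusted p of 0.177. Both of its transcript entries, 10150 and 10294 bases long, were higher in both *Foxf2-/-* embryos.

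*Pcdh17*, known from the basal ganglia, lies at chr14:84843370-84936867 on the plus strand. Its FPKM was 15.9 in the *Foxf2+/+* and 11.7 in the *Foxf2+/-* control, compared with 9.31 and 8.42 in the mutants, so the controls differed from each other by more than the *Foxf2-/-* embryos did. The ratio of the mutants was 0.559-fold to the *Foxf2+/+* and 0.760-fold to the *Foxf2+/-* control, with a log2 fold change of -0.62 ± 0.15 (SE; limma, adjusted p = 0.241). Without the *Foxf2+/-* embryo, *Pcdh17*, *Pcdh19*, *Pcdh9*, *Cdh10* and *Cdh18* would each be past 1.5-fold.

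The *Foxf2+/-* embryo lay between the *Foxf2+/+* embryo and the mean of the *Foxf2-/-* embryos for 6 of the 11 members whose groups did not overlap (54.5%): *Cdh6*, *Cdh10*, *Pcdh7*, *Pcdh9*, *Pcdh17* and *Pcdh19*. Over all genes whose groups did not overlap, it did so for 62.9% (3206 of 5097), so the share among the members was near that of all genes. For the other 5 it lay on the far side of the *Foxf2+/+* embryo, with log2 differences of *Foxf2+/-* minus *Foxf2+/+* of -0.21 for *Cdh2*, -0.11 for *Cdh4*, -0.04 for *Cdh8*, 0.40 for *Cdh29* and 0.05 for *Pcdh11x*.

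**Figure D3:**
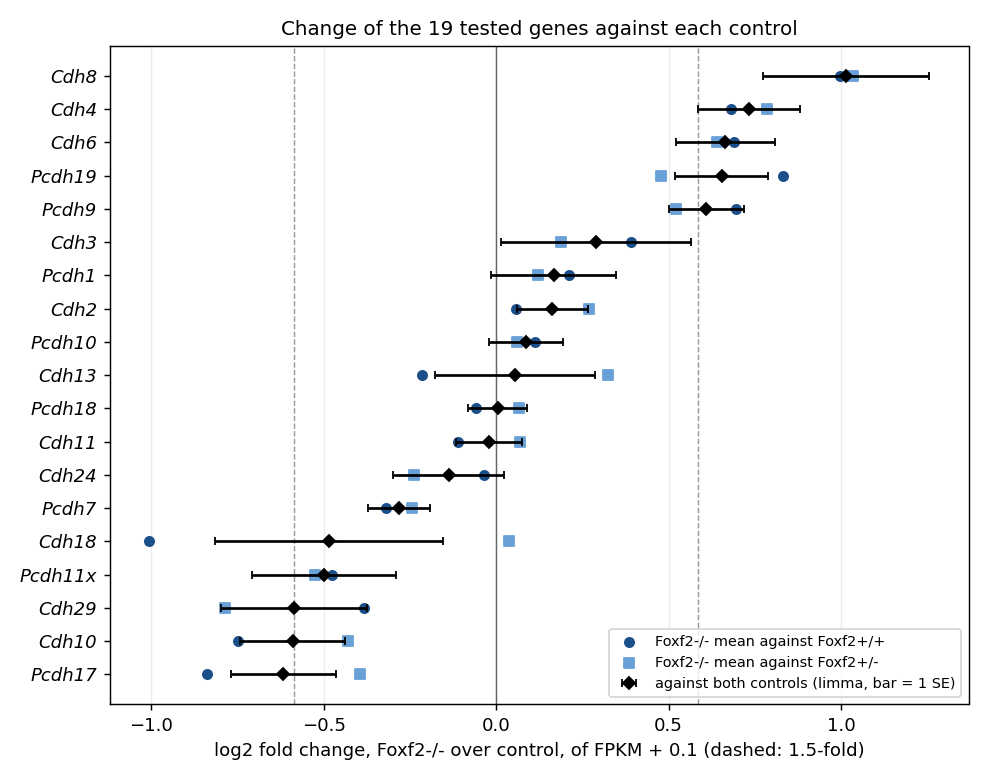
Log2 fold change of each of the 19 members in *Foxf2-/-* over control embryos (black, with 1 SE from limma) and of the *Foxf2-/-* mean against each control alone (dark blue, *Foxf2+/+*; light blue, *Foxf2+/-*), with 1.5-fold marked by dashed lines. Both blue points of *Cdh4*, *Cdh6* and *Cdh8* lie beyond 1.5-fold, whereas for *Pcdh19* (1.78-fold and 1.39-fold) and *Pcdh17* (0.559-fold and 0.760-fold) only the point against *Foxf2+/+* does.

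*Pcdh10* showed no separation as a gene with the FPKM as deposited but did in its entries. *Pcdh10*, or OL-protocadherin, was at 7.68 and 7.97 FPKM in the controls against 7.83 and 8.83 in the mutants. The log2 fold change of the gene was 0.09 ± 0.11 (SE; limma, adjusted p = 0.767), with an interval from -0.17 to 0.34. With samples rescaled by median ratios, both *Foxf2-/-* embryos were above both controls (log2 fold change 0.17, limma, adjusted p = 0.569). Its 4 entries begin at the same base and share reads, so their split is an estimate. The entry of 4234 bases, NM_001098172, took 68.4 and 70.5% of the gene's FPKM in the controls against 56.3 and 54.5% in the mutants. It was at 5.25 and 5.62 FPKM in the controls, above 4.41 and 4.82 in the *Foxf2-/-* embryos, and each of the other 3 entries was higher in both *Foxf2-/-* embryos. The 6064-base entry NM_001098170, for instance, was at 0.998 and 0.978 FPKM in the controls against 1.52 and 1.72 in the mutants. No test across entries was made.

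**Figure D4:**
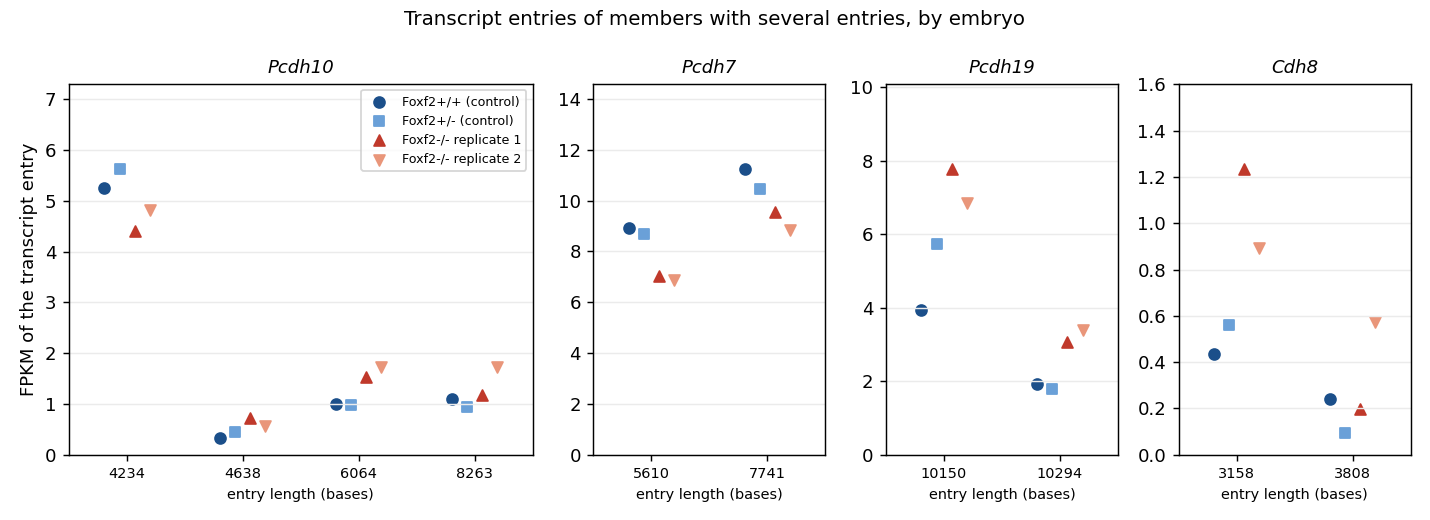
FPKM by embryo of the transcript entries of *Pcdh10*, *Pcdh7*, *Pcdh19* and *Cdh8*, arranged by entry length in bases. The shortest *Pcdh10* entry was lower in both *Foxf2-/-* embryos (4.41 and 4.82 FPKM) than in the controls (5.25 and 5.62), and its other 3 entries were higher.

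The remaining 17 members had a mean under 1 FPKM and were not tested with the others. Of these, 11 were under 0.3 FPKM in all embryos, and *Cdh16*, the kidney cadherin, was listed at 0 in all 4. Both *Foxf2-/-* embryos were above both controls for 3 of the 17 (*Cdh1*, *Cdh5* and *Pcdh8*) and below both for 5 (*Cdh7*, *Cdh9*, *Cdh20*, *Pcdh15* and *Pcdh20*). Over the 6017 genes with a mean above 0 and under 1 FPKM, the groups were apart and higher for 15.6% and apart and lower for 15.8%. *Pcdh15* and *Cdh9* were the members of this group that were past 1.5-fold and lower against both controls, as were 3.62% of those 6017 genes. *Pcdh15*, which forms the tip link of inner-ear hair cells with *Cdh23*, was at 0.935 and 1.05 FPKM in the controls against 0.511 and 0.448 in the mutants (an estimated 112 to 273 reads). *Cdh9*, a type II cadherin of brain, was at 0.870 and 0.702 FPKM in the controls against 0.380 and 0.284 in the mutants (23.5 to 63.0 reads). With no filter on low values, the limma adjusted p was 0.393 for each. *Pcdh20* was at 0.764 and 0.488 FPKM against 0.418 and 0.338, and *Cdh12* at 0.899 and 0.747 against 0.755 and 0.711, the first of which was above the *Foxf2+/-* embryo. *Cdh20* ranged from 0.210 to 0.480 FPKM and *Pcdh8* from 0.193 to 0.291. *Cdh7*, *Cdh17*, *Cdh22*, *Cdh23*, *Cdh26* and *Pcdh12* did not pass 0.161 FPKM in any embryo.

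**Figure D5:**
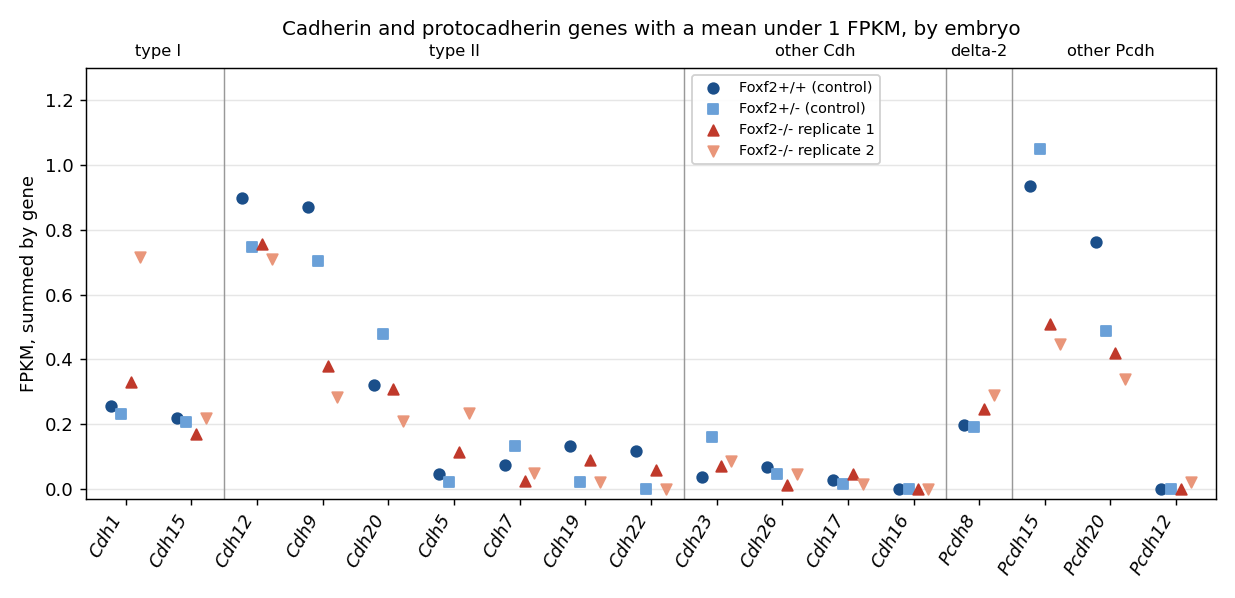
FPKM on a linear axis of the 17 members with a mean under 1 FPKM, each point 1 embryo, grouped by family. *Cdh9* (0.702 and 0.870 against 0.284 and 0.380) and *Pcdh15* (0.935 and 1.05 against 0.448 and 0.511) were lower in both *Foxf2-/-* embryos, and *Cdh1* was highest in the second of them (0.715).

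Cadherins that define other cell types were low. *Cdh1*, the E-cadherin of epithelia, was at 0.255 and 0.231 FPKM in the controls against 0.331 and 0.715 in the mutants. Beside it, the 12 epithelial markers summed to 8.13 and 10.4 FPKM in the controls and 10.4 in both *Foxf2-/-* embryos, and 6 of the 12 were under 1 FPKM in all embryos. The largest term of this sum was *Krt18*, at 2.67 and 2.70 FPKM in the controls against 3.11 and 2.22 in the mutants. Both *Foxf2-/-* embryos were above both controls for *Trp63*, *Cldn6*, *Esrp1* and *Shh*, as for 15.6% of genes with a mean above 0 and under 1 FPKM. The groups overlapped for the other markers of this list. *Cdh5*, the VE-cadherin of endothelium, was at 0.0456 and 0.0236 FPKM in the controls against 0.116 and 0.236 in the mutants, which rest on an estimated 2.78 to 26.9 reads. The 9 endothelial markers summed to 1.05 and 2.03 FPKM in the controls against 2.08 and 3.14 in the mutants, each of them under 1 FPKM in all embryos. *Cdh1* and *Cdh5* were past 1.5-fold and higher against both controls, as were 4.4% of the genes with a mean above 0 and under 1 FPKM, and the part of epithelial or endothelial cells in this was not tested, as for *Cdh3*.

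*Cdh15*, the M-cadherin of muscle precursors, was at 0.170 to 0.219 FPKM in all 4 embryos, and 8 muscle markers summed to 2.65 and 3.86 FPKM in the controls against 2.24 and 2.18 in the mutants. *Cdh19*, a cadherin of Schwann cell precursors, was at 0.134 and 0.0207 FPKM in the controls against 0.0902 and 0.0220 in the mutants. The summed FPKM of the 7 glial markers, 5 of them under 1 FPKM in all embryos, was higher in both *Foxf2-/-* embryos, with 2.28 and 1.69 FPKM in the controls against 6.57 and 3.21 in the mutants. Of this, *Fabp7*, a fatty-acid binding protein of glial precursors, was at 0.742 and 0.224 FPKM in the controls against 4.58 and 0.898 in the mutants. *Fabp7* and *Sox10*, the latter 2.04-fold higher and at or below 0.469 FPKM in all embryos, were both past 1.5-fold against each control. The 8 neuronal markers summed to 19.7 and 25.6 FPKM in the controls against 24.0 and 23.3 in the mutants. Most members that were apart between the groups (*Cdh2*, *Cdh4*, *Cdh6*, *Cdh8*, *Cdh10*, *Pcdh9*, *Pcdh17* and *Pcdh19*) are also expressed in neural tissue. *Pcdh7* and *Pcdh11x*, which were apart too, are delta protocadherins, a group best known from neurons. With the FPKM as deposited, the groups overlapped for *Cdh18*, also of neural tissue, and for the delta protocadherins *Pcdh1*, *Pcdh10* and *Pcdh18*. Neural expression was therefore not particular to the members that were apart. The part of glial or neuronal cells in the values of all these members was not tested.

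The partners of cadherins were compared as lists beside the members. Of 17 catenins and junction adaptors in the tables, which tie cadherins and nectins to actin, 15 were tested. By limma, 0 of the 15 were called, 2 were higher and 2 lower at an unadjusted p under 0.05, and the groups did not overlap for 6 that were higher (40%) and 4 that were lower (26.7%). The shares over all genes were 2.73% higher and 10.3% lower at that p, and 9.89% and 35.8% for groups that did not overlap, and the counts of the other lists stand against the same shares. The median log2 fold change of the 15 was 0.03, against -0.08 over all genes. The 10 genes of the WAVE complex and other partners through which delta protocadherins reach actin had 0 limma calls, 0 at an unadjusted p under 0.05 and a median of -0.09. Of 9 proteases that shed or cleave cadherins, limma called 0, 1 was higher and 1 lower at an unadjusted p under 0.05, and the median was 0.01. None of these lists held a gene past 1.5-fold against both controls.

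Of 8 transcriptional regulators of cadherin genes (Snail, Zeb, Twist and E-protein genes), limma called 0, 3 were higher (37.5%, against 2.73% of all genes) and 2 lower (25%, against 10.3%) at an unadjusted p under 0.05, and the median was -0.04. *Snai2*, a Snail repressor of E-cadherin, was at 68.3 and 54.3 FPKM in the controls against 40.1 and 44.6 in the mutants (limma, adjusted p = 0.225). *Zeb2*, another repressor of E-cadherin, was at 7.79 and 7.31 FPKM in the controls against 10.9 and 10.4 in the mutants (limma, adjusted p = 0.177). Both were chosen for mention after their values were seen. Of the other cadherin superfamily genes (Fat, Dachsous, Celsr, Cdhr and calsyntenin genes), 10 were tested, limma called 0, 1 was higher and 1 lower at an unadjusted p under 0.05, and the median was 0.07. The 13 desmosomal genes, which build the junctions of epithelia and heart, were each under 1 FPKM in all embryos, with sums of 0.655 and 1.01 FPKM in the controls against 1.68 and 1.61 in the mutants.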

How the data were processed

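RFP-positive cells from the palatal shelves of 4 embryos were sequenced from Nextera libraries, 1 library per embryo. The authors mapped the reads, which were single-end, with Bowtie (0.12.7 per the labels) and Tophat on mm9 and deposited 1 table of FPKM and read coverage per embryo, in the form Cufflinks writes, without pooling. The tables are named as Cufflinks output, whereas the study's methods describe RPKM computed per RefSeq gene in Strand NGS. Versions and options of both and the read length are not given in the sources used here. Strand was not stated for the kit or the estimation, so overlapping antisense genes could add to a member.

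Each table held 28107 RefSeq entries. Entries under 200 bases and 10 genes with a failed estimate were left out, the rest were summed by symbol (21352 genes), and log2(FPKM + 0.1) was tested for genes with a mean of at least 1 FPKM with limma 3.58.1 in R 4.3.3, with a variance trend, *Foxf2-/-* against both controls, and Benjamini-Hochberg adjustment over all 11154 genes. limma was used because the values are not counts. Groups come from the labelled genotypes. A second criterion, taken from the study's comparison with both controls, asked whether the *Foxf2-/-* mean lay beyond each control by over 1.5-fold. Intervals are 95% limma intervals, and all limma tests are two-sided. Reads behind a value were estimated as deposited coverage times length over 54.4 bases, where single reads of rare transcripts pile up, and such values spread too widely for whole reads to be recovered. The limma script was tested on simulated data. Of the members, 35 of 36 were found in GENCODE vM1 on mm9, all 35 at overlapping coordinates, and *Cdh29* was the exception. Promoters came from RefSeq on GRCm38.p6, and no coordinate was converted between builds. Members on chromosome 18 have no sequence here. Other steps used pandas 2.3.3 and numpy 2.4.6 (Python 3.11.15).

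Named were all members (those under 1 FPKM by range), genes of the other lists that were called or past 1.5-fold, and defining markers. The members, lists, markers and alternatives were chosen with earlier results of these data known. Alternatives varied the pseudocount, the filter, the scaling, the entries used, the fold cutoff, the limma model and the embryos included.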

Additional observations from a re-analysis of the deposited data

How the results depend on the processing

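limma called 0 members under all 14 alternative settings, with 4 to 13 members at an unadjusted p under 0.05, and the lowest adjusted p of a member was 0.0783 for *Pcdh19*. The number of genes called, 7, was 13 with a pseudocount of 1, 27 with entries of all lengths, 1 with the highest entry of each gene, 20 with a separate mean for each control genotype, and 0 with no filter on low values and with no variance trend. It ranged from 7 to 38 when 1 embryo was left out. The count of 3 members past 1.5-fold was 0 with a pseudocount of 1, 0 with a fold cutoff of 2, 0 with a filter of at least 5 FPKM in 1 embryo (which 9 members pass), and 7 with no filter, which adds *Cdh1*, *Cdh5*, *Cdh9* and *Pcdh15*. Leaving out 1 embryo gave 2 to 8, the highest without the *Foxf2+/-* embryo (5 higher and 3 lower). The 11 members whose groups did not overlap were 5 with the filter at 5 FPKM, 19 with no filter, and 13 to 18 without 1 embryo, where fewer values make a separation easier. Counting only genes with a mean of at least 1 FPKM in each group, an alternative chosen after seeing the data, gave 2 members past 1.5-fold and 10 whose groups did not overlap. The pseudocount and filter act by their construction on the low levels of *Cdh4*, *Cdh6* and *Cdh8*.

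Log2 fold changes of the 19 members kept their direction in 226 comparisons with an alternative, and 10 were reversed, none of them of a member with an unadjusted p under 0.05. *Cdh11* was at 0.0601 with median-ratio scaling, and *Pcdh10* at -0.232 with its highest entry only. When 1 embryo was left out, the range was -0.110 to 0.0696 for *Cdh11* and -1.01 to 0.0375 for *Cdh18* (highest without the *Foxf2+/+* embryo), -0.0571 to 0.0659 for *Pcdh18* and -0.216 to 0.325 for *Cdh13* (lowest without the *Foxf2+/-* embryo), -0.367 to 0.0929 for *Cdh24* and -0.0276 to 0.361 for *Pcdh1* (reversed without the first *Foxf2-/-* embryo), and -0.0685 to 0.648 for *Cdh3* (lowest without the second). The cause of these reversals was not tested. No paired analysis was possible because the control labels carry no replicate numbers. Read estimates of 26.9 or fewer limit what can be said of *Cdh5*, *Cdh7*, *Cdh15*, *Cdh17*, *Cdh19*, *Cdh22*, *Cdh26* and *Pcdh12*.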

Other observations

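The clustered protocadherins, which neurons combine into cell-specific surface codes and which were left out above, were also measurable in palatal mesenchyme. The tables held 59 genes of the *Pcdha*, *Pcdhb* and *Pcdhg* clusters, and their FPKM summed to 135 and 128 in the controls and 125 in both *Foxf2-/-* embryos. Of the 32 tested, limma called 0, 1 was higher and 0 were lower at an unadjusted p under 0.05 (2.73% and 10.3% of all genes), and the groups did not overlap for 4 that were higher (12.5%, against 9.89% of all genes) and 8 that were lower (25%, against 35.8%). The median log2 fold change was -0.10, against -0.08 over all genes. *Pcdhac2*, the last variable exon of the alpha cluster, was the 1 gene past 1.5-fold, at 2.30 and 2.28 FPKM in the controls against 3.91 and 3.63 in the mutants (limma, adjusted p = 0.177). The genes of the alpha and gamma clusters share their last exons, so the split of reads between them is an estimate. This list was added after the values of the members had been seen.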
